A study of Homo sapiens
Mus musculus and Homo sapiens with 12 samples.

Results

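Human genes for lysosomal enzymes and membrane proteins were followed in cell fusions of mouse embryonic stem cells and human fibroblasts. The set holds 36 of 18892 human genes with a coding transcript in the annotation used. It was chosen by known function, with earlier results of these data known. It comprises 7 proteases, 17 hydrolases of glycans and sulfate esters, 7 lipid hydrolases, activators and cholesterol exporters, and 5 lysosomal membrane proteins or autophagy receptors. All coding RefSeq transcripts of a gene were summed in each library. Where a table lacks a transcript, its value was set to 0 only before the point in accession order where that table stops, and it counts as not covered after it.

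Lysosomes break down glycans, lipids and proteins that arrive by endocytosis and autophagy. Most of their soluble hydrolases are tagged with mannose 6-phosphate in the Golgi and delivered by receptors, while membrane glycoproteins such as LAMP1 line the compartment. Fibroblasts carry an active lysosomal system, which is why fibroblast cultures are widely used to diagnose lysosomal storage disorders, and many of these genes are known targets of the transcription factor TFEB.

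The study followed the human fibroblast genome in heterokaryons, which are fused cells that keep the nuclei of both parents separate. D3 mouse embryonic stem cells were fused with MRC5 human lung fibroblasts, and heterokaryons were collected at day 1, day 2 and day 3 after fusion, with 2 libraries per day. Heterokaryons do not become dividing hybrid cell lines, and each library pools sorted cells. The 2 co-culture libraries hold RNA of both cell types grown together without fusion and harvested as a mixture, in proportions that the labels do not give. Unfused human fibroblasts gave 3 libraries, and fibroblasts fused with each other (homokaryons) gave 1, for which no day is stated. For unfused fibroblasts and the homokaryon the labels name only human fibroblasts, not the line. Heterokaryons were isolated by flow cytometry, and whether unfused cells were sorted too is not stated, so an effect of sorting cannot be told apart from one of fusion. The labels give no drug, transgene or mutation for any group. Replicates are not said to be separate cultures, so the p-values here reflect the spread of these samples alone, and that spread may be technical. In such bulk libraries, fewer cells of a type and less RNA per cell cannot be told apart.

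Values are taken to be per transcript length and library and are called RPKM, a unit inferred from the values. The inference rests on transcript length alone, and scaling per library was assumed. Read totals were not used here, and the depth is unknown. The table of fibroblast replicate 3 holds no human accession and gave no value. Over 4765 genes covered in all 10 libraries other than fibroblast replicates 1 and 3, between 2080 and 2867 genes were listed above 0 in a library, and 23 or 24 of the 24 members among them. Replicate log2 values correlated across genes with r between 0.867 (day 1) and 0.991 (fibroblasts), as a description, since genes are not independent. Fibroblast markers covered in the mixed libraries (6 of 10) summed to between 6234 and 6258 in co-culture, with ranges of 6540.0 to 7052, 4268 to 4808 and 5779 to 6168 on the successive days. COL1A1, COL1A2 and VIM make up most of that sum. PDGFRB was lower at day 1 and day 2 (31.9 and 34.7 against 81.1 in co-culture, limma adjusted p = 0.0277 and 0.0402), and COL3A1 was lower at day 2 (92.0 against 219, adjusted p = 0.0286). Markers of macrophages, which are rich in lysosomes, were low. MRC1 was absent from all 10 libraries that covered it and was set to 0. CD14 reached at most 0.89, and LYZ, the highest of the 4 covered among 9, reached 13.7. The human SOX2 transcript, the only 1 of 8 pluripotency markers covered, was absent from the same 10 libraries and set to 0. For MRC1 and SOX2, a silent gene and one missing from the upstream annotation cannot be told apart. The summed epithelial markers were higher in heterokaryons than in co-culture or the homokaryon. The 3 of 5 covered summed to 5.94 and 18.7 in co-culture and to 16.7 in the homokaryon. In heterokaryons they summed to 88.6 to 133 at day 1, 260.3 to 563 at day 2 and 339 to 585 at day 3. KRT8 was at 0 in day 2 replicate 1 and at 233 in day 2 replicate 2. EPCAM stayed at or below 3.33, and KRT8 and KRT19 made up the rest. The part of these markers in the results on lysosomal genes was not tested.

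Because the tables stop at different accessions, the comparisons cover different members. All coding transcripts were covered in every heterokaryon and co-culture library for 25 of the 36 members, in part for 9 (CTSB, CTSC, CTSL, ARSB, IDS, ASAH1, LAMP2, CTNS and SQSTM1), and not at all in every such library for 2 (MANBA and LAMP1). GLB1 was covered but left out of the tests because an unnamed accession lies next to its own. Tests against co-culture therefore held 28 members at day 1, 24 at day 2 and 25 at day 3, and tests against fibroblasts held 17. In all 11 libraries with human values, 18 members were covered.

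Some glycan and sulfate ester hydrolases were called higher in heterokaryons than in co-culture at day 1 and day 2. At day 3 only FUCA1 of that group was called. Fold changes in that group were positive for 8 and negative for 6 at day 1, and for 7 and 6 on each later day. GALNS was called lower at day 2. The lipid activator GM2A was called higher on every day. The median of the lysosomal set stayed close to that of all genes. These calls rest on few libraries, as described below. Genes were called with limma at a Benjamini-Hochberg adjusted p under 0.05 over all genes tested. At day 1, 5 of 28 members were higher and 0 lower, where 11% of 3578 genes were called in either direction, 6.4% higher and 4.58% lower. At day 2, 5 of 24 members were higher and 1 lower, against 10.5% of 2440 genes, 6.68% higher and 3.77% lower. At day 3, 3 of 25 members were higher and 0 lower, against 3.52% of 3009 genes, 2.29% higher and 1.23% lower. The members had median log2 fold changes of 0.16, 0.22 and -0.06 on the successive days, beside 0.00, 0.29 and 0.07 over all genes tested. The median of the members at day 3 changed sign with the scaling, to 0.14 after upper quartile scaling. All 3 comparisons share the 2 co-culture libraries, so their calls are not independent of each other. FUCA1 is among the members called higher on each day. It passed the filter on low values (1 or more in 2 or more libraries) only through heterokaryon libraries. The counts of higher members are therefore not independent of that filter.

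**Figure D1:**
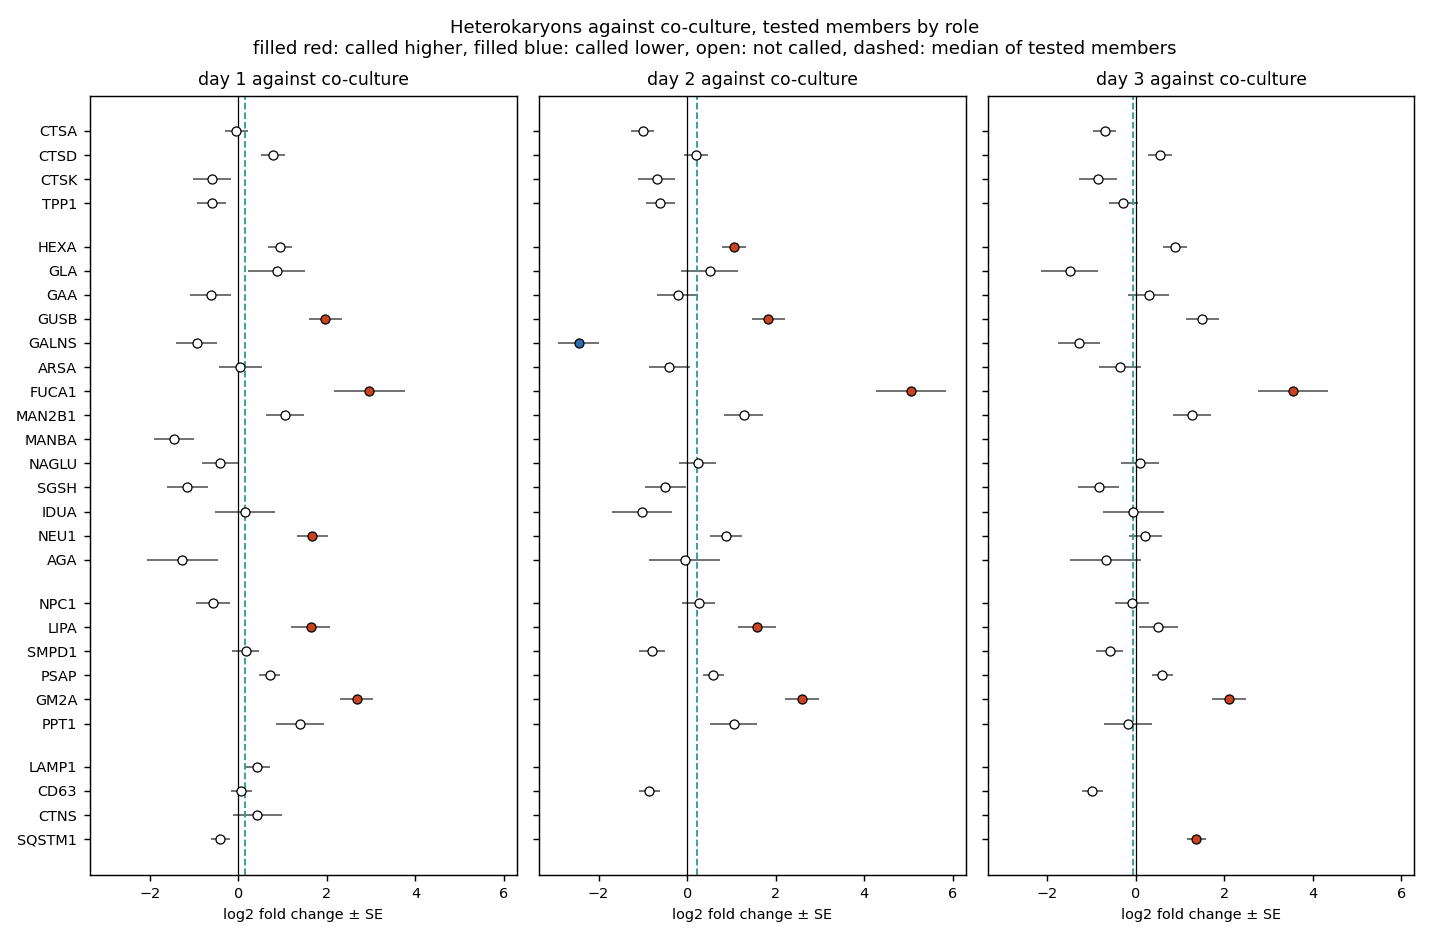
Log2 fold change (x axis, on log2 of the value plus 1, bars are the SE of the limma fit) of each tested member (y axis, grouped by role) for each heterokaryon day against co-culture. Called members are filled, the dashed line is the members' median, and FUCA1 reaches 5.06 at day 2 while GALNS reaches -2.45.

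FUCA1, the fucosidase that removes fucose from glycoproteins and glycolipids, was nearly absent from the unfused cells. It had 22.7 and 3.62 on day 1, then 37.6 and 51.4 on day 2, then 23.8 and 9.09 on day 3, compared with co-culture values of 0.816 and 0, fibroblast values of 0.542 and 0.702 and 2.03 in the homokaryon. Every heterokaryon library lay above every other library, and replicates at day 1 were far apart. FUCA1 rose on every day, with log2 fold changes of 2.96, 5.06 and 3.55 (SE 0.80, 0.79 and 0.79, limma adjusted p = 0.0475, 0.0071 and 0.0465). It passed the filter on low values (1 or more in 2 or more libraries) only through heterokaryon libraries. Its calls against co-culture and fibroblasts are therefore not independent of that filter.

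GUSB is the beta-glucuronidase of glycosaminoglycan breakdown. Libraries read 42.0 and 45.7 on day 1, then 35.6 and 44.7 on day 2, then 22.9 and 43.1 on day 3, compared with co-culture values of 9.31 and 11.7, fibroblast values of 10.1 and 9.69 and 15.5 in the homokaryon. All 6 heterokaryon libraries exceeded all others, with day 3 replicate 1 the lowest of them. GUSB rose at day 1 (log2 fold change 1.97, SE 0.37, limma adjusted p = 0.014) and day 2 (1.84, SE 0.36, adjusted p = 0.018), and at day 3 had a log2 fold change of 1.50 (SE 0.37, adjusted p = 0.0612).

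HEXA encodes the alpha subunit of beta-hexosaminidase A, the enzyme that degrades GM2 ganglioside. Its values were 90.1 and 97.0 on day 1, then 110.5 and 93.9 on day 2, then 85.6 and 94.3 on day 3, compared with co-culture values of 59.7 and 39.0, fibroblast values of 39.8 and 39.5 and 103 in the homokaryon. Heterokaryon libraries did not overlap with co-culture or fibroblasts, and the homokaryon lay among them. HEXA rose against co-culture at day 2 (log2 fold change 1.06, SE 0.26, limma adjusted p = 0.0394), with values of 0.94 (SE 0.26, adjusted p = 0.053) at day 1 and 0.88 (SE 0.27, adjusted p = 0.113) at day 3.

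NEU1, the lysosomal sialidase, was high on the earliest day. It had 133 and 113 on day 1, then 69.2 and 72.0 on day 2, then 29.1 and 66.6 on day 3, compared with co-culture values of 36.03 and 39.7, fibroblast values of 47.3 and 49.9 and 37.3 in the homokaryon. Both day 1 libraries lay above all others, and the day 3 libraries lay on either side of co-culture. NEU1 rose at day 1 (log2 fold change 1.67, SE 0.36, limma adjusted p = 0.0219), and had 0.88 at day 2 (SE 0.36, adjusted p = 0.163) and 0.22 at day 3 (SE 0.36, adjusted p = 0.823).

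GALNS, a sulfatase of keratan sulfate and chondroitin sulfate breakdown, went the other way. Libraries read 17.9 and 25.9 on day 1, then 11.1 and 4.18 on day 2, then 12.8 and 22.0 on day 3, compared with co-culture values of 44.1 and 40.5, fibroblast values of 25.2 and 28.3 and 31.2 in the homokaryon. Each heterokaryon library was below both co-cultures, and day 2 was below all other groups. GALNS fell at day 2 (log2 fold change -2.45, SE 0.46, limma adjusted p = 0.015), with -0.94 at day 1 (SE 0.47, adjusted p = 0.231) and -1.28 at day 3 (SE 0.47, adjusted p = 0.184).

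**Figure D2:**
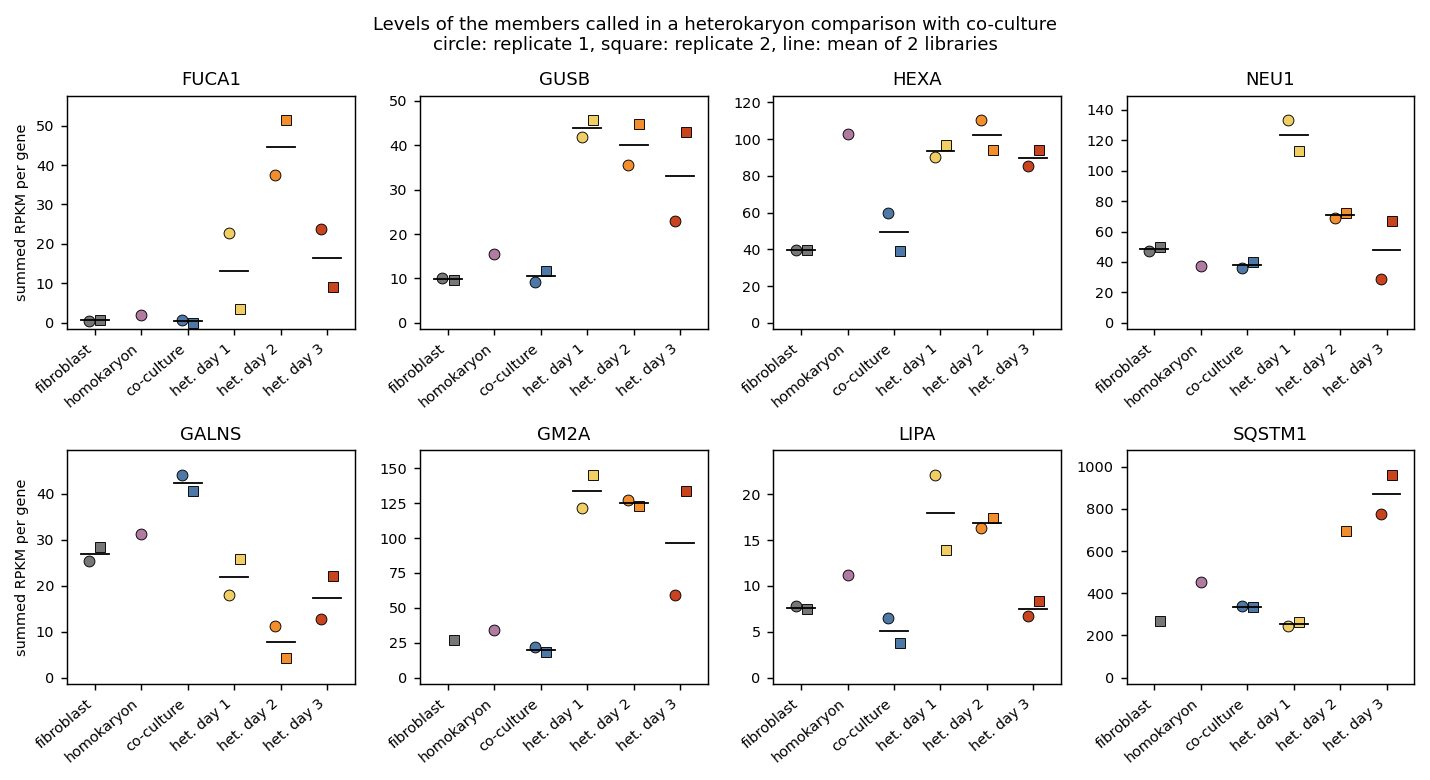
Summed RPKM (y axis, linear, a separate scale per gene) of the 8 members called against co-culture, by group (x axis), with a point per library and a line at the mean of 2 libraries. Heterokaryon points of FUCA1, GUSB and GM2A all lie above the other groups, those of GALNS all lie below co-culture, and libraries that do not cover a gene have no point.

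MAN2B1, the lysosomal alpha-mannosidase, was at 94.6 and 55.7 on day 1, then 67.7 and 105 on day 2, then 57.5 and 123 on day 3, compared with co-culture values of 33.6 and 35.0, a value of 38.1 in fibroblast replicate 2 and 48.4 in the homokaryon. All 6 heterokaryon libraries were above co-culture, but replicates were far apart, and the log2 fold changes of 1.06, 1.28 and 1.27 (SE 0.43, 0.44 and 0.44, 9 libraries in the fit) did not pass (adjusted p = 0.159, 0.104 and 0.171). GAA, the acid glucosidase that digests glycogen, was at 14.0 and 12.8 on day 1, then 12.9 and 25.4 on day 2, then 17.6 and 38.6 on day 3, compared with co-culture values of 19.7 and 22.9, fibroblast values of 9.01 and 9.01 and 39.4 in the homokaryon. Its heterokaryon range took in co-culture and lay above fibroblasts. GLB1, the beta-galactosidase measured in senescence staining, was at 62.7 and 60.9 on day 1, then 69.4 and 63.8 on day 2, then 58.8 and 78.3 on day 3, compared with co-culture values of 58.8 and 64.2, fibroblast values of 67.1 and 60.9 and 99.4 in the homokaryon. Its 8 mixed libraries spanned only 1.33-fold, the narrowest range of the members covered there, and it was not tested.

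The remaining glycan and sulfate ester hydrolases covered in all mixed libraries had means under 20 there and none was called against co-culture. GLA, the alpha-galactosidase A, is singled out after its values were seen: it was at 31.6 and 19.0 on day 1, then 14.8 and 24.1 on day 2, then 9.25 and 1.39 on day 3, compared with co-culture values of 12.9 and 13.0, fibroblast values of 25.1 and 20.1 and 41.8 in the homokaryon. Day 3 lay below every other group, with a log2 fold change against co-culture of -1.50 (SE 0.64, limma adjusted p = 0.254). Over the 8 mixed libraries, NAGLU, which acts on heparan sulfate, ranged from 10.8 to 25.3, and SGSH, a sulfamidase of the same chain, from 8.07 to 28.4. SGSH, also singled out after its values were seen, lay below both co-cultures at day 1 and day 3 and overlapped with them at day 2. Its log2 fold changes at day 1 and day 3 were -1.15 and -0.84 (SE 0.46 and 0.47, limma adjusted p = 0.144 and 0.395). The sulfatide-cleaving ARSA ranged from 4.77 to 11.2, the iduronidase IDUA from 1.15 to 8.29, and AGA, which cleaves asparagine-linked sugars, from 0 to 5.80. MANBA, the beta-mannosidase, was covered for day 1 alone, at 5.72 and 7.80 against 17.8 and 22.6 in co-culture (log2 fold change -1.46, SE 0.45, 4 libraries in the fit, adjusted p = 0.101).

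Among the lipid genes, GM2A changed most. GM2A is the activator protein that lifts GM2 ganglioside from the membrane and presents it to beta-hexosaminidase A. It had 121 and 145 on day 1, then 127 and 123 on day 2, then 59.5 and 134 on day 3, compared with co-culture values of 22.1 and 18.1, a value of 27.3 in fibroblast replicate 2 and 34.2 in the homokaryon. No heterokaryon library overlapped with any other group, and day 3 replicate 1 was the lowest. GM2A rose on every day, with log2 fold changes of 2.67, 2.59 and 2.11 (SE 0.38 each, limma adjusted p = 0.0074, 0.00793 and 0.0296, 9 libraries in the fit).

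LIPA, the acid lipase that hydrolyses cholesteryl esters and triglycerides, had low levels. Libraries read 22.1 and 13.9 on day 1, then 16.4 and 17.4 on day 2, then 6.71 and 8.36 on day 3, compared with co-culture values of 6.51 and 3.76, fibroblast values of 7.79 and 7.50 and 11.2 in the homokaryon. Day 1 and day 2 lay above all other groups, while the day 3 values lay on either side of the fibroblast values. LIPA rose at day 1 (log2 fold change 1.63, SE 0.43, limma adjusted p = 0.046) and day 2 (1.58, SE 0.42, adjusted p = 0.0478), with 0.51 (SE 0.43, adjusted p = 0.606) at day 3.

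PSAP, the precursor of the saposins that activate sphingolipid hydrolases, was at 820.0 and 690.1 on day 1, then 689 and 699 on day 2, then 571 and 843 on day 3, compared with co-culture values of 469 and 451, a value of 404 in fibroblast replicate 2 and 822 in the homokaryon. Heterokaryons did not overlap with co-culture, yet the log2 fold changes of 0.71, 0.59 and 0.59 did not pass (SE 0.23, 0.23 and 0.24, adjusted p = 0.0933, 0.158 and 0.238, 9 libraries in the fit). SMPD1, the acid sphingomyelinase, was at 105 and 98.2 on day 1, then 49.8 and 54.2 on day 2, then 43.5 and 82.4 on day 3, compared with co-culture values of 89.0 and 92.8, fibroblast values of 101 and 106 and 113 in the homokaryon. Day 2 and day 3 were below co-culture without passing (log2 fold changes -0.79 and -0.59, SE 0.30 and 0.31, adjusted p = 0.135 and 0.36). NPC1, the cholesterol exporter of the lysosomal membrane, was at 13.4 and 21.9 on day 1, then 32.4 and 30.4 on day 2, then 18.9 and 31.9 on day 3, compared with co-culture values of 22.0 and 30.8, fibroblast values of 20.9 and 20.6 and 9.34 in the homokaryon. Day 1 lay below co-culture by a small margin, and day 2 and day 3 overlapped with it. PPT1, which removes palmitate from proteins, ranged from 3.44 to 23.8 over the mixed libraries and was not called. It lay above both co-cultures at day 1 and day 2 and overlapped with them at day 3. Its log2 fold changes at day 1 and day 2 were 1.40 and 1.05 (SE 0.54 and 0.53, limma adjusted p = 0.13 and 0.258).

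No protease was called on any day, and they did not share a direction. CTSD, the aspartic protease cathepsin D, was at 287 and 279.6 on day 1, then 181 and 195 on day 2, then 186 and 309.6 on day 3, compared with co-culture values of 175 and 154, a value of 186 in fibroblast replicate 2 and 226 in the homokaryon. Its heterokaryon libraries all exceeded co-culture, by a log2 fold change of 0.78 at day 1 (SE 0.27, limma adjusted p = 0.106, 9 libraries in the fit). CTSA, the carboxypeptidase that protects GLB1 and NEU1 in a complex, was at 174 and 192 on day 1, then 100.1 and 87.6 on day 2, then 94.7 and 141 on day 3, compared with co-culture values of 171 and 210.1, a value of 199 in fibroblast replicate 2 and 306 in the homokaryon. Day 1 overlapped with co-culture, and day 2 lay below it with a log2 fold change of -1.01 (SE 0.26, adjusted p = 0.0504, 9 libraries in the fit). TPP1, a tripeptidyl peptidase, was at 41.0 and 58.4 on day 1, then 50.2 and 47.6 on day 2, then 44.8 and 84.0 on day 3, compared with co-culture values of 72.0 and 77.9, fibroblast values of 62.1 and 57.0 and 104 in the homokaryon. Only day 3 overlapped with co-culture. CTSK, the collagen-degrading cathepsin K, was at 15.7 and 28.6 on day 1, then 14.5 and 27.3 on day 2, then 17.4 and 17.8 on day 3, compared with co-culture values of 40.01 and 26.7, fibroblast values of 20.1 and 21.3 and 185.0 in the homokaryon. The homokaryon stood far above all mixed and unfused libraries.

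**Figure D3:**
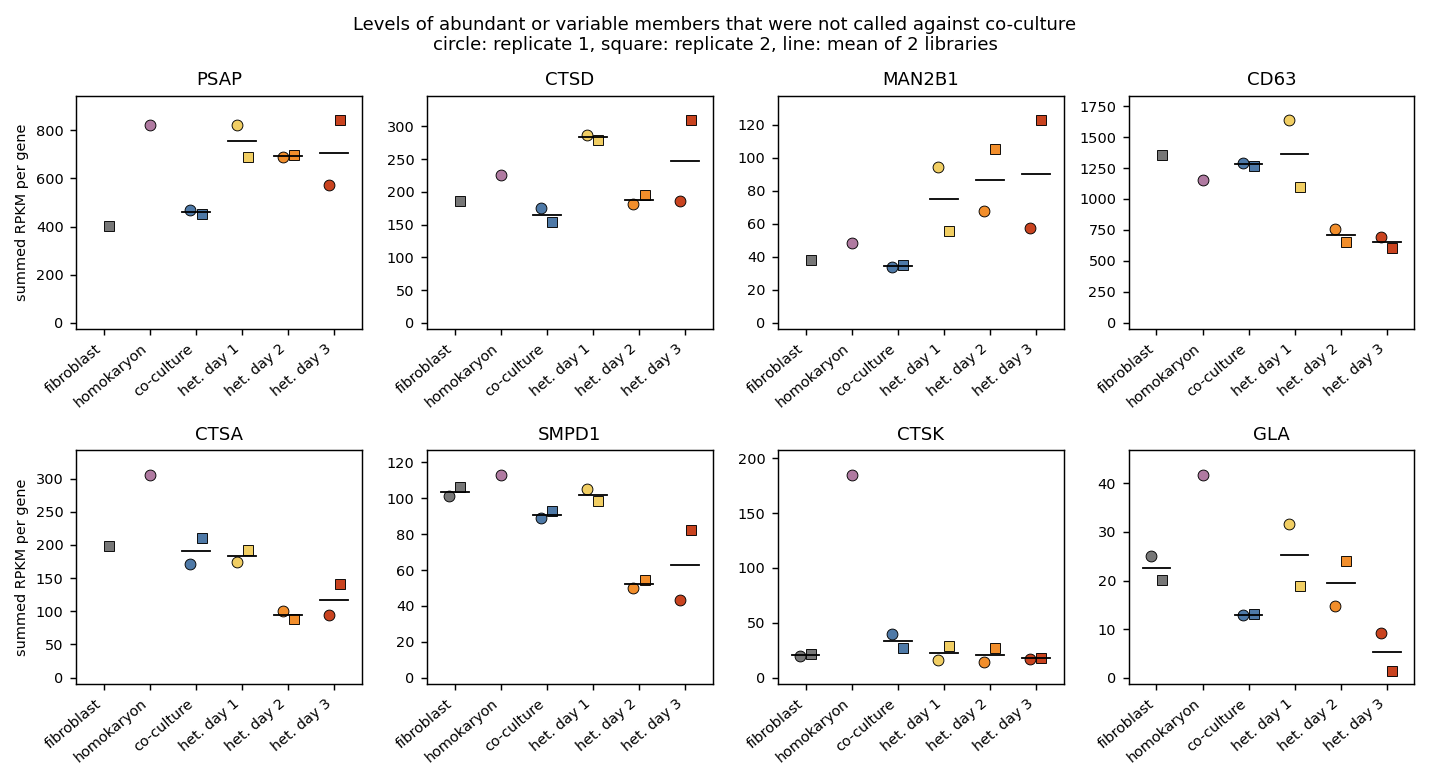
Summed RPKM (y axis, linear, a separate scale per gene) of 8 members that were not called against co-culture, by group (x axis), with a point per library and a line at the mean of 2. PSAP, CTSD and MAN2B1 lie above co-culture in all heterokaryon libraries, CD63 and CTSA lie below it at day 2 and day 3, and the homokaryon library has the highest CTSK, at 185.0.

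Among membrane proteins and receptors, SQSTM1 stood out at day 3. SQSTM1, the autophagy receptor p62, read 245 and 262 on day 1, then 695 on day 2 (replicate 2 alone), then 777 and 962 on day 3, compared with co-culture values of 337 and 335, 269 in fibroblast replicate 2 and 453 in the homokaryon. Day 1 lay below co-culture, and the 3 later libraries lay above all other groups. SQSTM1 rose at day 3 against co-culture (log2 fold change 1.36, SE 0.21, limma adjusted p = 0.0246, 8 libraries in the fit).

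CD63, a tetraspanin of late endosomes and lysosomes, had the highest mean RPKM over the mixed libraries among members covered in all of them, though PSAP exceeded it in day 2 replicate 2 and day 3 replicate 2. It was at 1638 and 1095 on day 1, then 761 and 652 on day 2, then 694 and 605 on day 3, compared with co-culture values of 1290.4 and 1268, a value of 1353 in fibroblast replicate 2 and 1150.1 in the homokaryon. Day 2 and day 3 lay below all other groups without passing (log2 fold changes -0.86 and -0.98, SE 0.24 each, limma adjusted p = 0.0577 and 0.0661, 9 libraries in the fit). LAMP1 was covered for day 1 alone among the heterokaryons, at 391 and 254 against 237 and 231 in co-culture and 288 in the homokaryon (log2 fold change 0.43, SE 0.28, 4 libraries in the fit, adjusted p = 0.393). CTNS, the cystine exporter, was between 2.86 and 7.49 in the 6 libraries that covered it.

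The calls rest on few libraries: of 26 calls of a member in the comparisons here, 0 stayed called in all fits that leave out 1 library, where a lone library of a group is assumed to vary like the other groups. At day 1, GM2A and GUSB were lost without either co-culture (adjusted p up to 0.0836 and 0.117). FUCA1 and LIPA were lost without day 1 replicate 1 (0.152 and 0.115) or either co-culture (up to 0.260 and 0.255), and NEU1 without any library (0.0589 to 0.158). At day 2, FUCA1 stayed called only without co-culture replicate 1 (0.0412, else up to 0.0768) and GALNS only without day 2 replicate 1 (0.0353, else up to 0.106). GM2A, GUSB, HEXA and LIPA were lost without any of the 4 libraries, with adjusted p of up to 0.0764, 0.121, 0.241 and 0.251. At day 3, FUCA1 was lost without any library (0.0901 to 0.271), and GM2A and SQSTM1 stayed called only without day 3 replicate 1 (0.011 and 0.0241, else up to 0.207 and 0.201). Log2 fold changes kept their sign in each of these fits. When only the 2 compared groups were fitted, 0 of all genes were called at day 1 or at day 3, and FUCA1, GM2A, GUSB and GALNS but not HEXA and LIPA stayed called at day 2.

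Without a test, 14 of the 28 members at day 1 lay above both co-cultures in both libraries (28.1% of all genes tested) and 8 below (26.1%). The counts were 11 above and 6 below of 24 at day 2 (39.3% and 21.6%), and 9 above and 7 below of 25 at day 3 (26.2% and 20.7%). Over the 3 days together, 8 of 24 members (33.3%) were above both co-cultures in all 6 heterokaryon libraries, where 12.7% of 2440 genes were: CTSD, FUCA1, GM2A, GUSB, HEXA, LIPA, MAN2B1 and PSAP. GALNS was the only 1 below in all 6 (4.17%, against 10.1% of genes). These shares are a description only. The 3 days share the 2 co-culture libraries, and the members were chosen with earlier results of these data known. FUCA1 passed the filter on low values only through heterokaryon libraries.

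**Figure D4:**
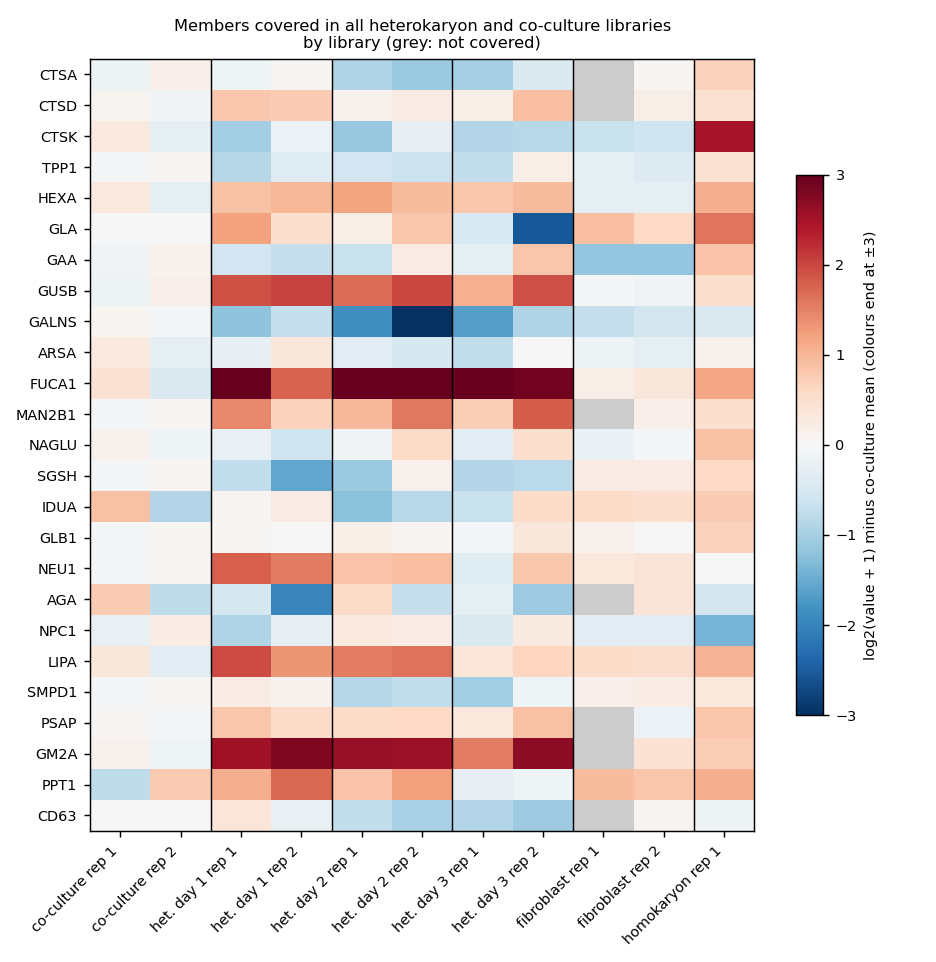
Log2 of the value plus 1 minus its co-culture mean (colour, ending at 3 in either direction) for the 25 members covered in all mixed libraries (rows) by library (columns). FUCA1, GM2A and GUSB are red in all heterokaryon columns, GALNS is blue, and grey cells are not covered.

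Between heterokaryon days, SQSTM1 was the only member called. It rose from day 1 to day 3 (log2 fold change 1.77, SE 0.21, limma adjusted p = 0.0431, 8 libraries in the fit), 1 of 25 members where 1.26% of 3009 genes were called, 0.698% higher and 0.565% lower. The call was lost without day 1 replicate 1 (adjusted p = 0.0782), without day 1 replicate 2 (0.0524), with the replicate number as a block (0.0597) and in the fit of those groups alone (0.376). From day 1 to day 2, 0 of 24 members were called (0.328% of genes, 0.246% higher and 0.082% lower). Before adjustment 5 members reached p under 0.05, as did 457 of 2440 genes tested. From day 2 to day 3, 0 of 24 were called (0% of genes), and 4 had such a p, as did 199 of 2440 genes. The fits of the 2 compared days alone gave 0 for both. NEU1 had the lowest unadjusted p of the glycan hydrolases from day 1 to day 3, with a log2 fold change of -1.46 (SE 0.36, adjusted p = 0.0828).

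Against unfused fibroblasts, 17 members were tested. At day 1, 4 members were higher and 0 lower (16% of 964 genes called in either direction, 9.34% higher and 6.64% lower): FUCA1 (log2 fold change 2.69, adjusted p = 0.0491), GUSB (2.04, adjusted p = 0.00793), HEXA (1.22, adjusted p = 0.0164) and NEU1 (1.32, adjusted p = 0.0399). At day 2, 3 were higher and 1 lower (12.4% of genes, 9.54% higher and 2.9% lower): FUCA1 (4.80, adjusted p = 0.00649), GUSB (1.91, adjusted p = 0.0115) and HEXA (1.34, adjusted p = 0.014) rose, and GALNS fell (-1.81, adjusted p = 0.0336). At day 3, 3 were higher and 0 lower (7.26% of genes, 5.39% higher and 1.87% lower): FUCA1 (3.29, adjusted p = 0.0381), GUSB (1.58, adjusted p = 0.0276) and HEXA (1.16, adjusted p = 0.0286). All p-values are from limma with Benjamini-Hochberg adjustment, and each of these calls was lost without at least 1 of the 4 libraries compared, including either fibroblast library (FUCA1 up to 0.234, GUSB up to 0.216, HEXA up to 0.219, NEU1 up to 0.215, GALNS up to 0.221). At day 3 the count of 3 became 0 when the compared groups were fitted alone and with genes covered in part. At day 1 the count of 4 became 2 without the filter on low values, with quantile normalization and with upper quartile scaling. These comparisons share the heterokaryon libraries with those above, and FUCA1 passed the filter on low values only through those libraries. GM2A and SQSTM1 were not covered in fibroblast replicate 1 and were not tested against fibroblasts, since the test asked for both libraries.

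Between co-culture and unfused fibroblasts, 0 of 17 members were called (0.83% of 964 genes, 0.622% higher and 0.207% lower), which does not show that they are alike. The libraries did not overlap for 11 members, 5 above and 6 below (27.3% and 26.3% of genes). Before adjustment 1 member, GAA, had p under 0.05, as did 113 of 964 genes, and GAA was called when those groups were fitted alone. GAA was at 19.7 and 22.9 in co-culture against 9.01 and 9.01 (log2 fold change 1.15, SE 0.44, limma adjusted p = 0.339).

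The homokaryon library shows fusion of fibroblasts with each other, without a replicate and therefore without a test. Against fibroblast replicate 2, 25 members could be compared: 21 were higher and 4 lower, with a median log2 ratio of 0.36 beside 0.00 over 2274 genes. On log2 of the value plus 1, 5 members were at least 2-fold higher (17.9% of genes) and 1 lower (17.3%). As ratios of the values themselves, these were CTSK at 8.67-fold (185.0 against 21.3), GAA at 4.37-fold (39.4 against 9.01), HEXA at 2.61-fold (103 against 39.5), GLA at 2.07-fold (41.8 against 20.1) and PSAP at 2.03-fold (822 against 404). NPC1 was lower, at 9.34 against 20.6. FUCA1 (2.03 against 0.702) and AGA (1.72 against 4.20) also differed by more than 2-fold as plain ratios, but at low levels where adding 1 brings them under that size. Against the mean of both fibroblast libraries, 16 members could be compared, with 4 at least 2-fold higher (13.2% of 637 genes), 1 lower (17.9%) and a median of 0.43 beside 0.01. Of the 8 members called in heterokaryons against co-culture, HEXA (103), NEU1 (37.3), LIPA (11.2) and SQSTM1 (453) lay within the range of the heterokaryon libraries in the homokaryon. FUCA1 (2.03), GUSB (15.5) and GM2A (34.2) lay below all heterokaryon values, and GALNS (31.2) lay above all of them. Fibroblast markers differed too in this library, in both directions. The 6 covered summed to 14917 against 7269 in fibroblast replicate 2, with COL1A1, COL1A2, COL3A1 (2251 against 147) and PDGFRB higher and VIM (2054 against 3319) and LUM (0.104 against 0.597) lower. Their part in these ratios was not tested.

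**Figure D5:**
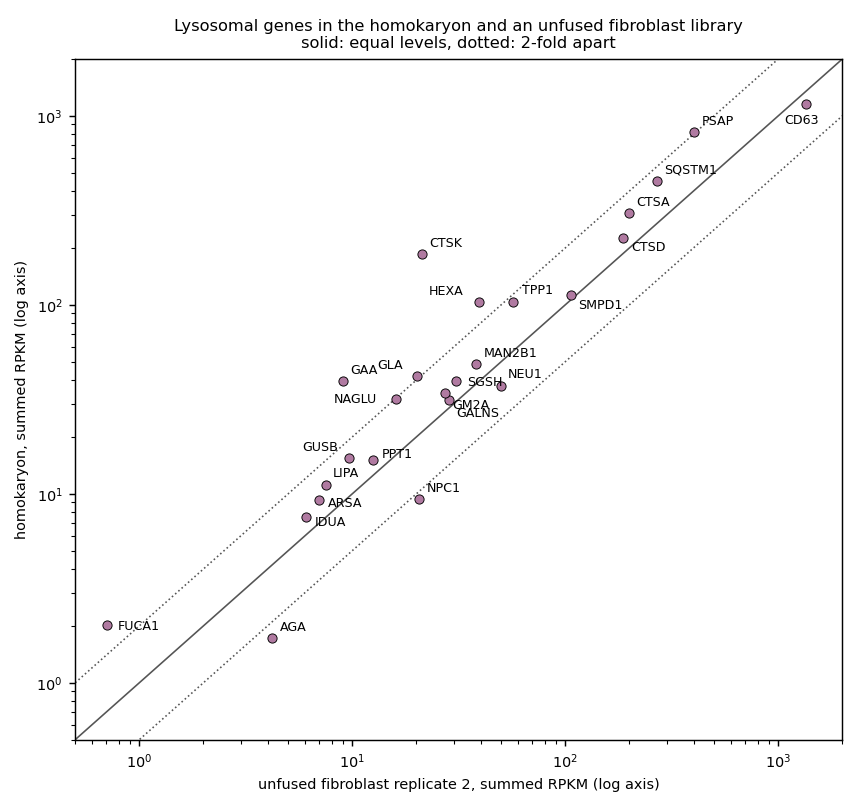
Summed RPKM of 25 members in the homokaryon library (y axis, log scale) against unfused fibroblast replicate 2 (x axis, log scale), with a point per gene, a solid line at equal levels and dotted lines at 2-fold. CTSK and GAA lie well above the upper dotted line, and 21 of 25 points lie above the solid line.

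Other genes of the lysosomal pathway were listed by function, and few of each list were covered. Against co-culture, where 11%, 10.5% and 3.52% of all genes were called at day 1, day 2 and day 3, 0 of 13, 0 of 6 and 0 of 10 tested subunits of the V-ATPase, the proton pump that acidifies lysosomes, were called (4, 1 and 0 at an unadjusted p under 0.05). Such a p was reached by 981 of 3578, 622 of 2440 and 549 of 3009 genes tested on the successive days. Of the other hydrolases, 0 of 16, 0 of 9 and 0 of 15 were called (5, 1 and 1 at such a p). The counts were 0 of 3, 0 of 2 and 0 of 2 for other membrane proteins, 0 of 9, 0 of 5 and 0 of 7 for sorting genes, and 0 of 3, 0 of 2 and 0 of 2 for regulators. Of the autophagy machinery, 0 of 6, 0 of 2 and 1 of 4 were called. ATG12, the ubiquitin-like conjugate of ATG5 in autophagosome formation, was absent from both day 3 libraries and set to 0. Its co-culture mean was 9.08 ± 5.85 (SD, n = 2), and it was called lower at day 3 (limma adjusted p = 0.0474, 6 libraries in the fit). Against fibroblasts, 7 genes of these lists were tested on each day: 2 other hydrolases, 1 other membrane protein, 2 sorting genes and 2 regulators. At day 1, 1 membrane protein and 1 sorting gene were called lower (16% of all genes called), at day 2 the membrane protein (12.4%), and at day 3 none (7.26%). CLN3, a membrane protein mutated in juvenile Batten disease, fell from 27.6 ± 2.50 to 3.47 ± 2.24 at day 1 (SD, n = 2, log2 fold change -2.77, limma adjusted p = 0.0118) and was also called at day 2 (-1.94, adjusted p = 0.0461). Co-culture CLN3 was at 11.7 ± 6.03, and no heterokaryon day was called against it. IGF2R, the large mannose 6-phosphate receptor, fell from 95.2 ± 2.18 to 38.3 ± 11.9 at day 1 against fibroblasts (SD, n = 2, log2 fold change -1.33, limma adjusted p = 0.0301), where co-culture was at 38.2 ± 9.07.

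Members covered in part could be followed only through the transcripts listed in all mixed libraries, and such sums may miss a major isoform. The single covered transcript of CTSB, the cysteine protease cathepsin B, read 71.8 and 154 on day 1, then 159 and 279 on day 2, then 260.4 and 636 on day 3, compared with co-culture values of 431 and 338. For CTSL, cathepsin L, 4 of 5 transcripts summed to 112 to 186 in heterokaryons and to 102 and 112 in co-culture. CTSC, the dipeptidyl peptidase cathepsin C, was at 24.1 to 48.3 in heterokaryons, 78.8 and 61.9 in co-culture and 258 in the homokaryon, from 2 of 3 transcripts. ARSB, a sulfatase of dermatan sulfate, was at 4.60 to 9.55 against 13.5 and 11.8 in co-culture, from 1 of 2 transcripts. IDS, a sulfatase of heparan and dermatan sulfate, was at 4.74 to 15.4 against 23.8 and 20.4, from 2 of 3 transcripts. The covered transcripts of LAMP2 and of ASAH1, the acid ceramidase, stayed at or below 4.97 and 4.88 in every library.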

How the data were processed

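PolyA RNA libraries of 12 samples were used as deposited. The deposited human values are per transcript accession and taken as RPKM, since the median length of the transcripts with the 100 lowest values exceeds that of all transcripts in each table; the sources used here state no unit. Builds hg19 and mm10 come from the submitters' processing notes; the sources used here name no aligner. Each of the 11 tables with human values holds 10000 distinct values in accession order, and rows past the last new value were treated as not covered. Accessions were named with the RefSeq gene table and GENCODE release 29; 162 accessions stayed unnamed, and 253 genes beside them (GLB1 included) were set aside. Isoform values divide reads between similar transcripts, so transcripts were summed per gene.

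Log2 of the value plus 1 was fitted with limma 3.58.1 in R 4.3.3 (lmFit, eBayes with trend) over 10 libraries of 5 replicated groups, keeping a gene that reached 1 in 2 or more samples and was covered in both groups compared. Adding 1 understates changes of low genes. Fold changes are differences of mean log2 values, errors of levels are SD and errors of fold changes SE. Fibroblast replicate 3 held no human value, and the homokaryon entered no test. Code was tested on simulated data for day 2 against co-culture. There, 24 of 100 genes with a log2 effect of 1 were called with the right sign, and 76 of 100 with an effect of 2. Effects were given only to genes with a co-culture level above 10. These shares therefore do not apply to members with lower co-culture levels, such as FUCA1 and LIPA. A member that was not called may therefore still differ.

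Values in every library are given for members called against co-culture or between days and for members covered in all mixed libraries at a mean of 20 or more; up to 4 called genes per pathway list are named. Members, lists and rules were chosen with earlier results of these data known. Alternatives were another pseudocount (0.5), no filter, quantile and upper quartile scaling, a fit of the compared groups alone, genes covered in part, a replicate block and each library left out; keeping the genes set aside was added after seeing the data. A promoter description was not run, and mouse transcripts were not analysed here.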

Additional observations from a re-analysis of the deposited data

Results flagged for a closer look

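SQSTM1 differed between heterokaryon days: its log2 fold change of day 3 against day 1 was 1.77 by limma with 8 libraries in the fit, since day 2 replicate 1 and fibroblast replicate 1 do not cover it. The levels were 245 and 262 at day 1 and 777 and 962 at day 3.

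A pair of tables hold many rows outside the human annotation, which no comparison here used. Fibroblast replicate 1 has 12138 such rows and fibroblast replicate 3 has 8070, all of its rows, whereas the other 10 tables have between 125 and 245. What these rows measure was not tested, and no lysosomal gene takes a value from them.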

How the results depend on the processing

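Direction of the fold change was the same under every setting tried for each member called in any of them, with 445 values on the same side of the threshold, 137 losing and 30 gaining a call. Counts of members called moved as follows. Fitting the compared groups alone changed the count from 5 to 0 at day 1, 6 to 10 at day 2 and 3 to 0 at day 3 against co-culture, from 0 to 1 for co-culture against fibroblasts, from 4 to 8 at day 2 and 3 to 0 at day 3 against fibroblasts, and from 1 to 0 for day 3 against day 1; over all genes it called 0 in place of 393 at day 1 and 0 in place of 106 at day 3. At day 1 against co-culture the count was 3 without the filter, 2 with quantile normalization, 3 with upper quartile scaling and 3 with genes covered in part. At day 1 against fibroblasts it was 2 without the filter, 2 with quantile normalization and 2 with upper quartile scaling. Genes covered in part gave 1 at day 3 against co-culture and 0 at day 3 against fibroblasts.

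Leaving out each library in turn gave 0 to 4 calls at day 1, 0 to 1 at day 2 and 0 to 6 at day 3 against co-culture, 0 to 0 for co-culture against fibroblasts, 0 to 3 at day 1, 0 to 3 at day 2 and 0 to 4 at day 3 against fibroblasts, 0 to 0 for day 2 against day 1, 0 to 1 for day 3 against day 2 and 0 to 3 for day 3 against day 1. The 6 calls at day 3 were made without day 3 replicate 1, which added CTSD, GLA, GUSB and PSAP and lost FUCA1. The replicate numbers do not pair samples by their labels, and same-numbered deviations correlated at -0.12 to 0.08; with the replicate number as a block the count for day 3 against day 1 was 0, and other counts stayed within 1.5 times.

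Scaling moved the share of higher calls over all genes: with quantile normalization it was 45.3% rather than 63.9% at day 2 against co-culture, and 53.3%, 57.8% and 60.3% rather than 75%, 76.7% and 74.3% for co-culture, day 2 and day 3 against fibroblasts. With upper quartile scaling it was 81% rather than 65.1% at day 3 against co-culture, 26.7%, 36.4% and 65.3% rather than 75%, 58.4% and 76.7% for co-culture, day 1 and day 2 against fibroblasts, 77.2% rather than 55.3% for day 3 against day 1, and 85.7% rather than 75% for day 2 against day 1. These scalings shifted the median of all genes by -0.36 to 0.22. Depth is unknown, so low values such as those of AGA and IDUA carry no counting error here.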
